A study of Mus musculus with 6 samples.

Results

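Calcineurin and its NFAT (nuclear factor of activated T cells) substrates were followed through 9 genes measured in newborn mouse nerve. These were the catalytic subunit genes Ppp3ca and Ppp3cb, the regulatory subunit gene Ppp3r1, the calcineurin inhibitor genes Rcan1 and Rcan2, and the transcription factor genes Nfatc1, Nfatc2, Nfatc3 and Nfatc4. The members were chosen by symbol, 9 of the 18194 genes named on the array, from all probe sets annotated to exactly 1 gene. Each gene was represented by its probe set with the highest mean over all arrays, which was decided without regard to group. Sciatic nerves of mixed-strain pups were taken on postnatal day 2, and 1 Affymetrix Mouse Genome 430 2.0 array was hybridised per sample. The 3 dKO samples came from DhhCre+ HDAC1-2 dKO pups, in which the histone deacetylase genes Hdac1 and Hdac2 are deleted in Schwann cells, and are labelled with peripheral hypomyelination. The 3 control samples came from DhhCre– littermates. Cre under the desert hedgehog gene (Dhh) acts in the Schwann cell lineage, so RNA of whole nerve also holds cells outside the deletion. The perineurium had been removed in both groups. The labels do not say whether control pups carried floxed alleles or whether nerves of several pups were pooled.

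Calcineurin is a phosphatase that calcium and calmodulin switch on, built from a catalytic A subunit and a regulatory B subunit. It strips phosphate from the NFATc proteins, which then enter the nucleus and bind DNA, usually with a partner factor. In mouse Schwann cells, neuregulin signalling through ErbB receptors has been described to activate calcineurin by way of phospholipase C. There NFATc3 and NFATc4 act with Sox10 on the myelin regulator gene Egr2. Rcan proteins bind calcineurin and restrain it, and transcription from an inner start of Rcan1 is a widely used readout of NFAT activity.

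Levels below are the deposited log2 values. A change is the dKO mean minus the control mean, in log2 units, with its standard error (SE), and means carry their SD (n = 3 in each group). A gene was tested with limma if it reached 4, the low-value limit, on 3 or more of the 6 arrays. P-values were adjusted over the 14550 genes that did, with a threshold of 0.05. Both targeted genes were lower on every dKO array. Hdac1 was at 8.75, 8.96 and 8.85 in dKO, against 10.48, 10.38 and 10.36 in control (change -1.55, SE 0.13, adjusted p = 0.000271). Hdac2 was at 11.22, 10.81 and 11.19 in dKO, against 12.34, 12.33 and 12.33 in control (change -1.26, SE 0.15, adjusted p = 0.00103), and its change was -0.71 with its probe sets averaged. Which exons the probe sets cover was not checked against the deletion. All 8 tested markers of the Schwann cell lineage reached the limit on all 6 arrays. Arrays correlated at 0.980 to 0.991 within dKO, at 0.981 to 0.988 within control and at 0.925 to 0.963 between the groups. The median over tested genes was 7.64 on dKO 3, against 7.45 to 7.52 on the other arrays.

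The catalytic subunit gene Ppp3ca, the inhibitor gene Rcan1 and the transcription factor gene Nfatc4 rose in dKO nerves, and the other 6 members did not pass the test. Thus 3 of 9 were called higher and 0 lower, but 1 of 9, Ppp3ca, was called higher with the probe sets of each gene averaged. Of all genes tested, 22.0% were called, made up of 12.6% higher and 9.38% lower in dKO, so calls were common in these nerves. The 3 called members also had every dKO value above every control value, and 0 members had every dKO value below. Of all genes tested, the groups did not overlap for 40.9%, with dKO above for 22.6% and dKO below for 18.4%. The median change of the 9 members was 0.35, against 0.01 over all genes tested, and 6 of the 9 changes were above 0. At an unadjusted p under 0.05 in limma, 1 member was lower, Ppp3r1. The share of all genes under that cut was not counted, here or for the lists below. In the same samples all 7 tested markers of myelinating Schwann cells fell, while 4 of 8 fibroblast markers and 3 of 8 macrophage markers rose, and their part in these changes was not tested.

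**Figure D1:**
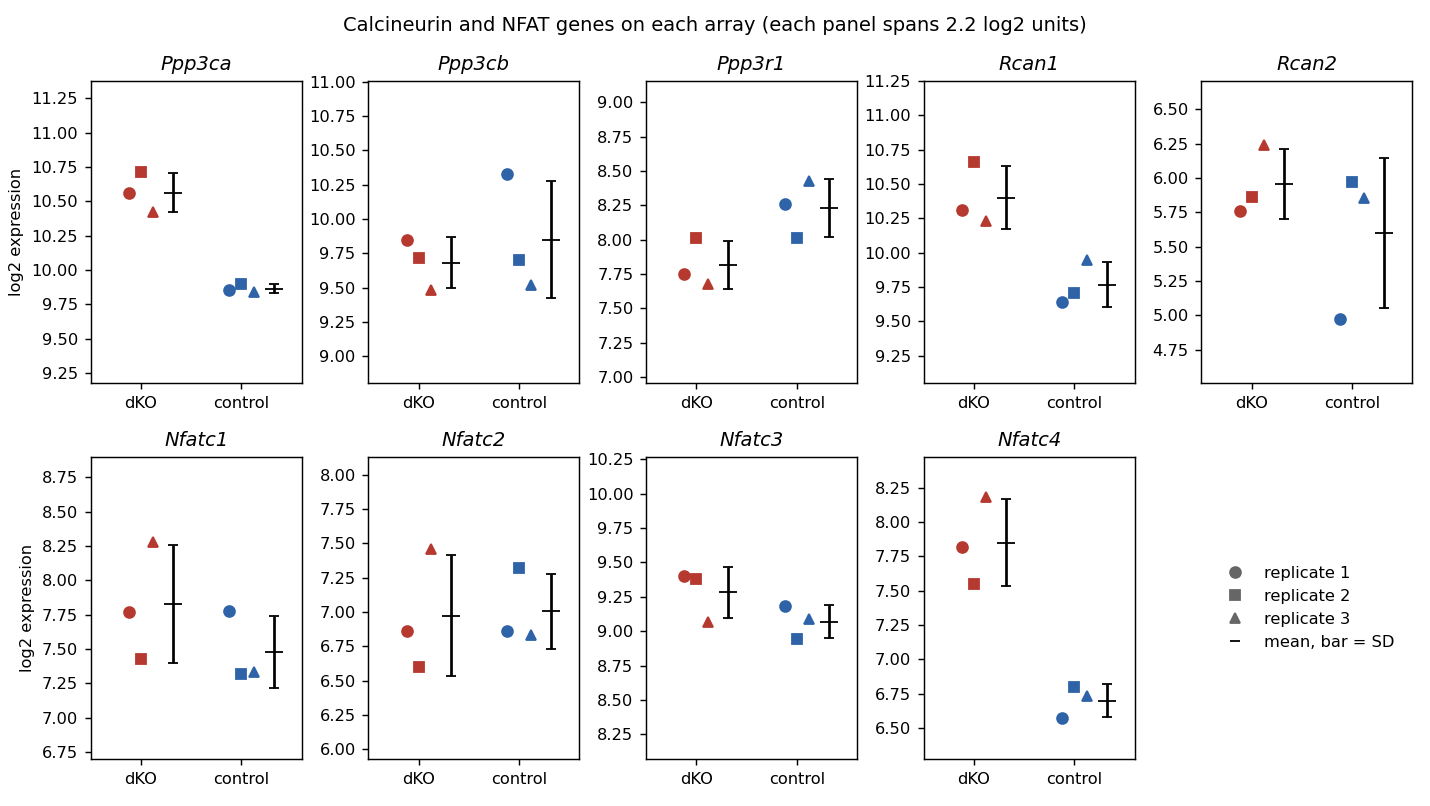
Log2 expression of the 9 genes on each array, 1 panel per gene, with dKO arrays in red, control arrays in blue, symbols for replicates 1 to 3 and the mean with its SD in black. Ppp3ca, Rcan1 and Nfatc4 have no overlap between the groups, and the other 6 genes overlap.

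The promoters of Nfatc4 and Rcan1 are shown before their values, because these members rose and because Rcan1 has an outer and an inner start. RefSeq (GRCm38.p6) gave windows for 7 of the 9 genes, and the 250 bases before each start are printed 5′ to 3′ in the direction of the gene. Capitals mark the NFAT core GGAAA on either strand, which reads TTTCC where it lies on the opposite strand. The windows are Nfatc4 on the plus strand at chr14:55824545-55824794, the outer start of Rcan1 on the minus strand at chr16:92466170-92466419 and the inner start of Rcan1 on the minus strand at chr16:92400079-92400328.
Nfatc4: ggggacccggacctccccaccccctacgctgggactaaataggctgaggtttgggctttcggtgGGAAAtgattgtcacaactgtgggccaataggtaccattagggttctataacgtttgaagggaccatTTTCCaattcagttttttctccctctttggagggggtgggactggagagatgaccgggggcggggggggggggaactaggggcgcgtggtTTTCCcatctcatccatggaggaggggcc
Rcan1 outer start: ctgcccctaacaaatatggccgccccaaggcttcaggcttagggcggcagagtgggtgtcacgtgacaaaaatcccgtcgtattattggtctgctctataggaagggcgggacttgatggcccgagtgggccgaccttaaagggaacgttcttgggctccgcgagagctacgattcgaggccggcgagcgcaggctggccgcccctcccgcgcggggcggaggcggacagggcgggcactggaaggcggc
Rcan1 inner start: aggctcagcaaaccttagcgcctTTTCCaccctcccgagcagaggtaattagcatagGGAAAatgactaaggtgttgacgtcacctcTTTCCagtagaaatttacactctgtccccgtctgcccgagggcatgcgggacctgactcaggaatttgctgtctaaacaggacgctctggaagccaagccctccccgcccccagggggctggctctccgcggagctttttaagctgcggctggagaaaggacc
The Nfatc4 window held 3 matches, the inner Rcan1 window 3 and the outer Rcan1 window 0. Of 32851 promoter windows of this length, 55.6% held at least 1 match and 6.39% held at least 3. The Sox motifs ACAAAG and ACAATG, searched on both strands, were found 0 times in these windows and at least once in 25.2% of all windows. A match says only that the letters are there. Matches in the windows of Nfatc2, Nfatc3, Ppp3cb, Ppp3r1 and Rcan2, which did not pass the test, are not given here. Which start the transcripts read by each Rcan1 probe set use was not determined.

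Ppp3ca, the gene of the alpha catalytic subunit, was at 10.56, 10.71 and 10.42 on dKO arrays 1 to 3, against 9.85, 9.90 and 9.84 on control arrays 1 to 3. The lowest dKO array lay above the highest control array, and control arrays were close together. Ppp3ca averaged 10.56 ± 0.15 in dKO and 9.86 ± 0.03 in control, and rose by 0.70 (SE 0.14, 1.63-fold, adjusted p = 0.00829), and its change stayed between 0.63 and 0.78 with any 1 array left out. All 3 of its probe sets rose. On 1426401_at the values were 10.28, 10.32 and 10.10 in dKO, against 9.10, 9.69 and 9.54 in control, a change of 0.79 (adjusted p = 0.0254 over all probe sets). On 1452056_s_at they were 10.06, 9.98 and 9.83 in dKO, against 8.95, 9.01 and 9.13 in control, a change of 0.93 (adjusted p = 0.00452). The groups were apart on each of the 3 probe sets, and the gene's call held under all 13 alternatives tried. Tested among all probe sets, 1426401_at lost its call without dKO 1, dKO 2, control 1 or control 3 (adjusted p = 0.0750, 0.0897, 0.0556 and 0.0531) and with the replicate number as a block (adjusted p = 0.0527). The gene's own probe set, 1438478_a_at, lost it there without dKO 2 or control 2 (adjusted p = 0.0617 and 0.0503), and 1452056_s_at kept it in all 8 alternatives. In whole nerve RNA, a different number of cells of a type and a different amount of RNA per cell cannot be told apart.

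Ppp3cb, the gene of the beta catalytic subunit, did not pass the test on any of its 4 tested probe sets. Its brightest probe set was at 9.85, 9.72 and 9.48 in dKO, against 10.33, 9.70 and 9.52 in control, so the groups overlapped and control 1 stood highest. The change was -0.16 (95% interval -0.68 to 0.35, adjusted p = 0.647), and it was 0.08 without control 1, -0.33 without control 3, -0.25 without dKO 1 and -0.07 without dKO 3. The other 3 tested probe sets changed by -0.03 to 0.21. The remaining probe set of Ppp3cb was under the limit on all arrays.

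Ppp3cc, the gene of the gamma catalytic subunit and not a member, fell. It comes from the list of other calcineurin subunits. Its values were 6.80, 6.79 and 6.47 in dKO, against 7.45, 7.66 and 7.59 in control, with no overlap. The change was -0.88 (SE 0.15, adjusted p = 0.00472), and -0.60 with both of its probe sets averaged. The regulatory subunit gene Ppp3r2 was under the limit on all 6 arrays.

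Ppp3r1, the gene of the regulatory B subunit, which binds calcium and holds the catalytic subunit in its active form, was at 7.75, 8.01 and 7.68 in dKO, against 8.26, 8.01 and 8.43 in control. The groups met only at dKO 2 and control 2, both at 8.01. The change was -0.42 (SE 0.17, 95% interval -0.80 to -0.04, adjusted p = 0.114), which did not pass. The other probe set of the gene was at 6.45, 6.38 and 6.36 in dKO, against 7.0, 6.57 and 6.76 in control, and its groups did not overlap (change -0.38, adjusted p = 0.152). A further probe set, annotated to both Ppp3r1 and Wdr92 and not used for the gene, gave 7.45, 7.65 and 7.20 in dKO, against 7.96, 7.86 and 7.92 in control (change -0.48, adjusted p = 0.0837). The mean was lower in dKO on all 3, and 0 of 3 passed in limma. All 3 were under an unadjusted p of 0.05, a cut for which the share of all probe sets was not counted.

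Rcan1, whose protein binds and inhibits calcineurin, was at 10.31, 10.66 and 10.23 in dKO, against 9.64, 9.71 and 9.95 in control. All dKO arrays were above all control arrays, with dKO 2 the highest. Rcan1 averaged 10.40 ± 0.23 in dKO and 9.77 ± 0.17 in control, and rose by 0.63 (SE 0.17, 1.55-fold, adjusted p = 0.0295). The call was lost without dKO 1, dKO 2, control 1 or control 2 (adjusted p = 0.0610, 0.0987, 0.0881 and 0.0923). The other Rcan1 probe set, dimmer, was at 7.43, 7.97 and 7.67 in dKO, against 8.04, 7.36 and 7.27 in control. Here the groups overlapped and control 1 was the highest array (change 0.13, SE 0.24, adjusted p = 0.756). With both probe sets averaged the Rcan1 change was 0.38 (adjusted p = 0.114), and with arrays centred on their medians it was 0.56 (adjusted p = 0.0603).

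Rcan2, which encodes a related calcineurin inhibitor, was at 5.76, 5.86 and 6.24 in dKO, against 4.97, 5.97 and 5.85 in control. The groups overlapped, and control 1 stood apart as the lowest array. The change was 0.36 (SE 0.27, 95% interval -0.27 to 0.98, adjusted p = 0.40), and 0.04 without control 1. The other probe set had a change of 0.31 (adjusted p = 0.444), which was 0.05 without control 1, 0.20 without dKO 2 and 0.48 without control 3, and the first had 0.21 without dKO 3.

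Nfatc4, the NFAT gene described with Sox10 in mouse Schwann cells, was at 7.82, 7.55 and 8.18 in dKO, against 6.57, 6.80 and 6.73 in control. All dKO arrays were above all control arrays, with dKO 3 the highest. Nfatc4 averaged 7.85 ± 0.31 in dKO and 6.70 ± 0.12 in control, and rose by 1.15 (SE 0.18, 2.22-fold, adjusted p = 0.00330), and by 0.98 without dKO 3. Of the 9 estimated changes this was the largest. This rests on probe set 1423380_s_at, 1 of 3 tested for the gene. By the array's naming, the ending _s_at marks probes that can match transcripts of more than 1 gene. Probe sets 1452056_s_at of Ppp3ca, 1447085_s_at of Nfatc1 and 1419976_s_at of Nfatc3 carry the same ending. The annotation gives only Nfatc4 for 1423380_s_at. On 1432821_at the values were 4.43, 4.55 and 4.76 in dKO, against 5.03, 4.86 and 4.76 in control, dim on all arrays, with the dKO mean lower (change -0.30, adjusted p = 0.237). Probe set 1454369_a_at, annotated to the same sequence record as 1432821_at, was also dim, at 4.31 to 4.84 over the 6 arrays. Its change was -0.12 (adjusted p = 0.679), and 1423379_at was under the limit on all 6 arrays. Averaged over all its probe sets, Nfatc4 had a change of 0.22 (adjusted p = 0.242), so the call rests on the brightest probe set.

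**Figure D2:**
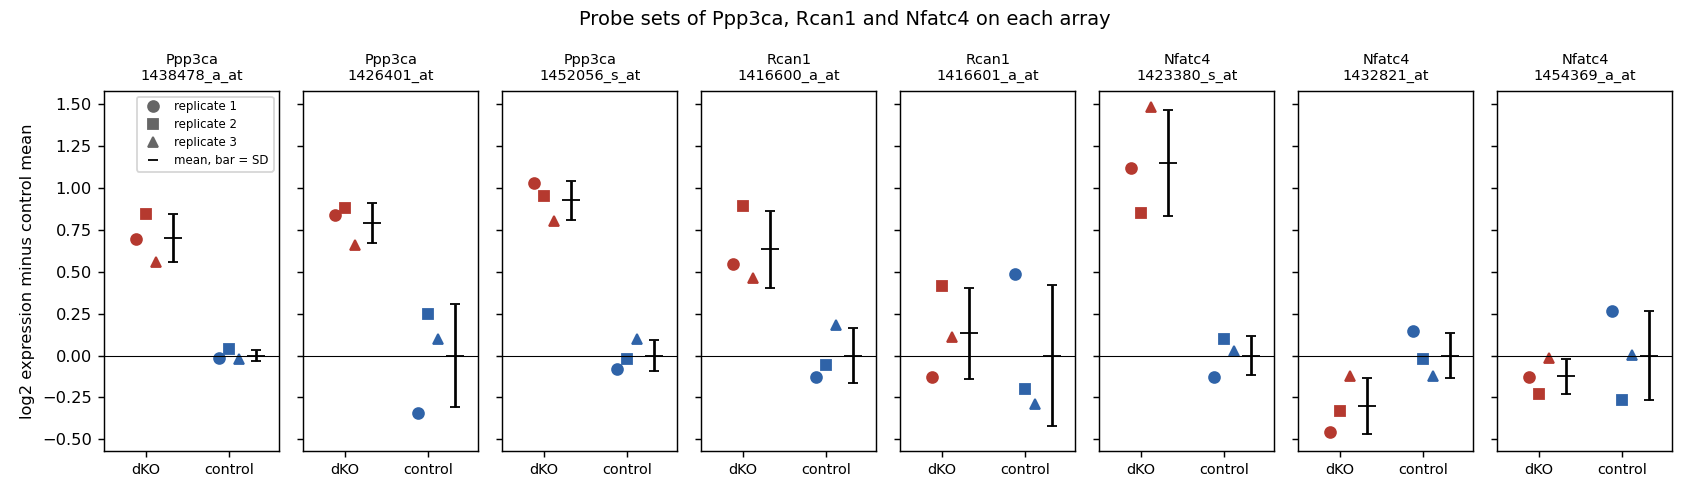
Log2 expression minus the control mean of that probe set, for each tested probe set of Ppp3ca, Rcan1 and Nfatc4 on each array, with dKO in red, control in blue and the mean with its SD in black. In dKO all 3 Ppp3ca probe sets lie above control, against 1 of 2 for Rcan1 and 1 of 3 for Nfatc4.

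Nfatc3, the other NFAT gene described in Schwann cell myelination, did not pass the test. It was at 9.40, 9.38 and 9.07 in dKO, against 9.18, 8.94 and 9.09 in control, and dKO 3 lay below 2 of the control arrays. The change was 0.22 (SE 0.15, 95% interval -0.13 to 0.57, adjusted p = 0.358), and the other probe set had a change of 0.26 (adjusted p = 0.412), or 0.07 without dKO 3.

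Nfatc1, known for its part in heart valves and in bone-resorbing cells, was at 7.77, 7.43 and 8.28 in dKO, against 7.78, 7.32 and 7.33 in control. Only dKO 3 was above all control arrays. The change was 0.35 (SE 0.24, 95% interval -0.19 to 0.90, adjusted p = 0.333), and it was 0.13 without dKO 3 and 0.55 without dKO 2. Its other 3 tested probe sets changed by 0.02 to 0.25, and the remaining one reached the limit on 2 arrays and was not tested.

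Nfatc2, known best from T cells and mast cells, was at 6.86, 6.60 and 7.46 in dKO, against 6.86, 7.32 and 6.83 in control. The groups overlapped fully, with the highest and the lowest array both in dKO. The change was -0.03 (SE 0.24, 95% interval -0.59 to 0.53, adjusted p = 0.941), and the 6 probe sets, all tested, changed by -0.21 to 0.09. Array dKO 3 was the highest dKO array for Nfatc1, Nfatc2, Nfatc4 and Rcan2, and the lowest for the other 5 genes.

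Over the 31 probe sets of the 9 genes, 28 passed the limit, 5 were called higher and 0 lower. At an unadjusted p under 0.05 in limma, 2 were lower, both of Ppp3r1, and the share of all probe sets under that cut was not counted. Of all 33975 probe sets tested, 15.8% were called, made up of 8.42% higher and 7.40% lower. The 5 were the 3 of Ppp3ca and 1 each of Rcan1 and Nfatc4. With arrays left out the count was 2 without dKO 2, and 3 without dKO 1, control 1, control 2 or control 3. In 7 of the 28 the groups did not overlap, 5 with dKO above and 2 with dKO below control, and the groups did not overlap for 36.5% of all probe sets tested.

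**Figure D3:**
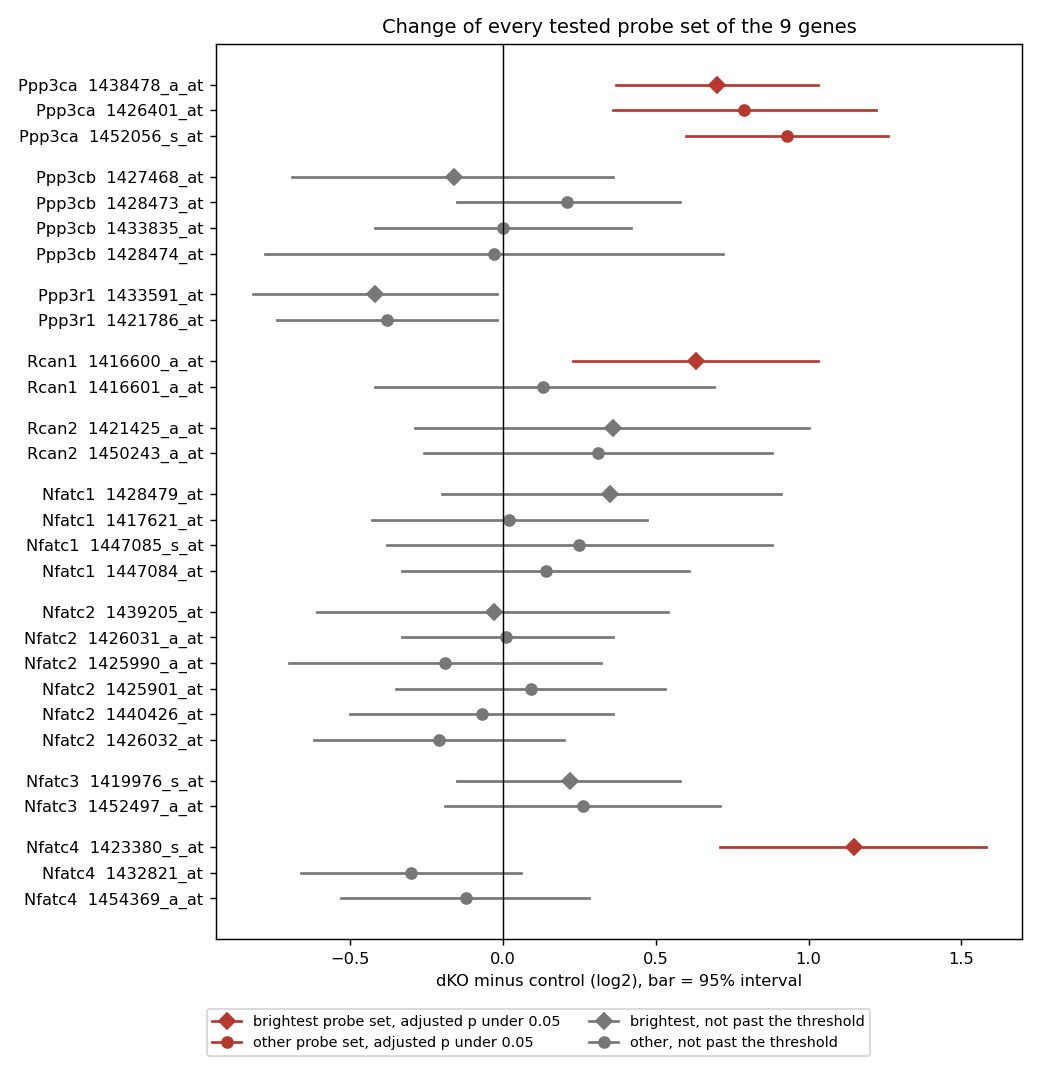
Change (dKO minus control, log2) of each of the 28 tested probe sets with its 95% interval, grouped by gene, with diamonds for the probe set that represents the gene and red for an adjusted p under 0.05. Every interval of Ppp3ca lies above 0, while for Nfatc4 the representing probe set lies above 0 and the intervals of the other 2 include 0.

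Phospholipase C enzymes make IP3, which opens calcium stores upstream of calcineurin. All 5 genes on the phospholipase C list passed, 4 higher and 1 lower in dKO, with a median change of 0.70. The list was chosen with earlier results of these data known, and phospholipase C genes outside it are not reported here. For this list and those below, the shares over all genes tested were 12.6% called higher and 9.38% called lower. Plcg1, the form that receptor tyrosine kinases activate, was at 11.25, 11.41 and 11.35 in dKO, against 9.97, 9.94 and 10.03 in control. The groups were far apart, and Plcg1 rose by 1.36 (SE 0.13, adjusted p = 0.000386), or by 0.80 with its 3 probe sets averaged. Plcb3 and Plcb4, which G proteins activate, rose by 0.87 and 0.60, and Plcb1 fell by 0.57. The call of Plcb4 was lost without dKO 1 or dKO 2 and with all probe sets averaged (change 0.30, adjusted p = 0.101). That of Plcb1 was lost without dKO 2, control 2 or control 3. With the replicate number as a block both calls were lost (adjusted p = 0.0551 for Plcb4 and 0.0667 for Plcb1). Plcg2, a form typical of blood cells, rose by 0.70 on its 1 probe set, a call lost without dKO 2 or any 1 control array. It falls outside the rule for named genes and was named after its value was seen.

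Of 7 tested genes of store-operated calcium entry and of IP3 receptors, which release stored calcium, 1 rose and 1 fell, with a median of 0.10. The receptor gene Itpr2 was at 6.02, 6.55 and 6.25 in dKO, against 5.20, 5.54 and 5.69 in control. Itpr2 rose by 0.80 (adjusted p = 0.0201), a call lost without dKO 2, control 1 or control 2. It was also lost with all probe sets averaged (change 0.34, adjusted p = 0.0623). With only the probe sets above the limit averaged, the change was 0.21 (adjusted p = 0.239). Itpr3 was at 6.62, 6.0 and 6.41 in dKO, against 7.39, 7.93 and 7.34 in control, and fell by 1.21 (SE 0.22, adjusted p = 0.00634).

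Among 7 tested inhibitors and anchors of calcineurin beyond the members, 1 rose and 0 fell, also 0 at an unadjusted p under 0.05 in limma, with a median change of 0.01. Homer2, a scaffold protein that competes with calcineurin for NFAT, was at 9.85, 10.20 and 9.34 in dKO, against 7.56, 8.03 and 8.56 in control. All dKO arrays were above control, and Homer2 rose by 1.75 (SE 0.29, 3.36-fold, adjusted p = 0.00425). Of 8 kinases that phosphorylate NFAT and oppose calcineurin, 0 passed in limma and 1, Csnk1a1, was under an unadjusted p of 0.05, with a median change of 0. Csnk1a1 had a change of -0.37 (adjusted p = 0.0840, or 0.0335 with an intensity trend in the fit) and Gsk3b one of 0.21 (adjusted p = 0.361), or 0.10 without dKO 1. Nfat5, an NFAT relative that calcineurin does not control, was at 8.46, 8.46 and 7.43 in dKO, against 8.34, 8.35 and 8.26 in control (change -0.20, adjusted p = 0.639). Its change was 0.14 without dKO 3 and -0.37 without dKO 1 or dKO 2.

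Of 5 tested genes of neuregulin input and of NFAT partners and targets in Schwann cells, 3 fell and 0 rose, also 0 at an unadjusted p under 0.05 in limma, with a median change of -1.33. The receptor gene Erbb3 was at 11.35, 10.66 and 10.33 in dKO, against 12.08, 12.26 and 12 in control (change -1.33, adjusted p = 0.00684). Egr2 was at 11.45, 10.34 and 11.03 in dKO, against 12.78, 12.68 and 12.59 in control (change -1.74, adjusted p = 0.00246). Both genes were lower on every dKO array than on any control array. Sox10, the DNA-binding partner, was at 10.37, 9.92 and 10.66 in dKO, against 10.87, 10.99 and 10.18 in control, with overlap (change -0.36, adjusted p = 0.371). The Sox10 change was -0.17 without dKO 2, -0.21 without control 2 and -0.61 without control 3. The compact myelin gene Pmp22 fell by 1.67.

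Of 14 genes described as NFAT targets in other tissues, 9 were tested, 3 rose and 0 fell, with a median change of 0.33 and 7 changes above 0. At an unadjusted p under 0.05 in limma, 1 was lower, Egr3 (change -0.79, adjusted p = 0.134). The immune targets Il2, Il4, Tnf and Fasl, and Ptgs2, were under the limit on all 6 arrays. Adamts1, a secreted protease, was at 11, 11.10 and 10.86 in dKO, against 9.20, 9.07 and 9.38 in control, and rose by 1.77 (SE 0.15, 3.41-fold, adjusted p = 0.000232). F3, which encodes tissue factor, rose by 0.91 (adjusted p = 0.0262), lost without dKO 1, dKO 3 or control 1. Ctsk, a protease of bone-resorbing cells, rose by 0.90 (adjusted p = 0.0431), lost without dKO 2, dKO 3, control 1 or control 2. Over the lists of other pathway genes together, 43 were tested, 9 rose and 6 fell, and the median change was 0.01. The shares over all genes tested were 12.6% higher and 9.38% lower.

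**Figure D4:**
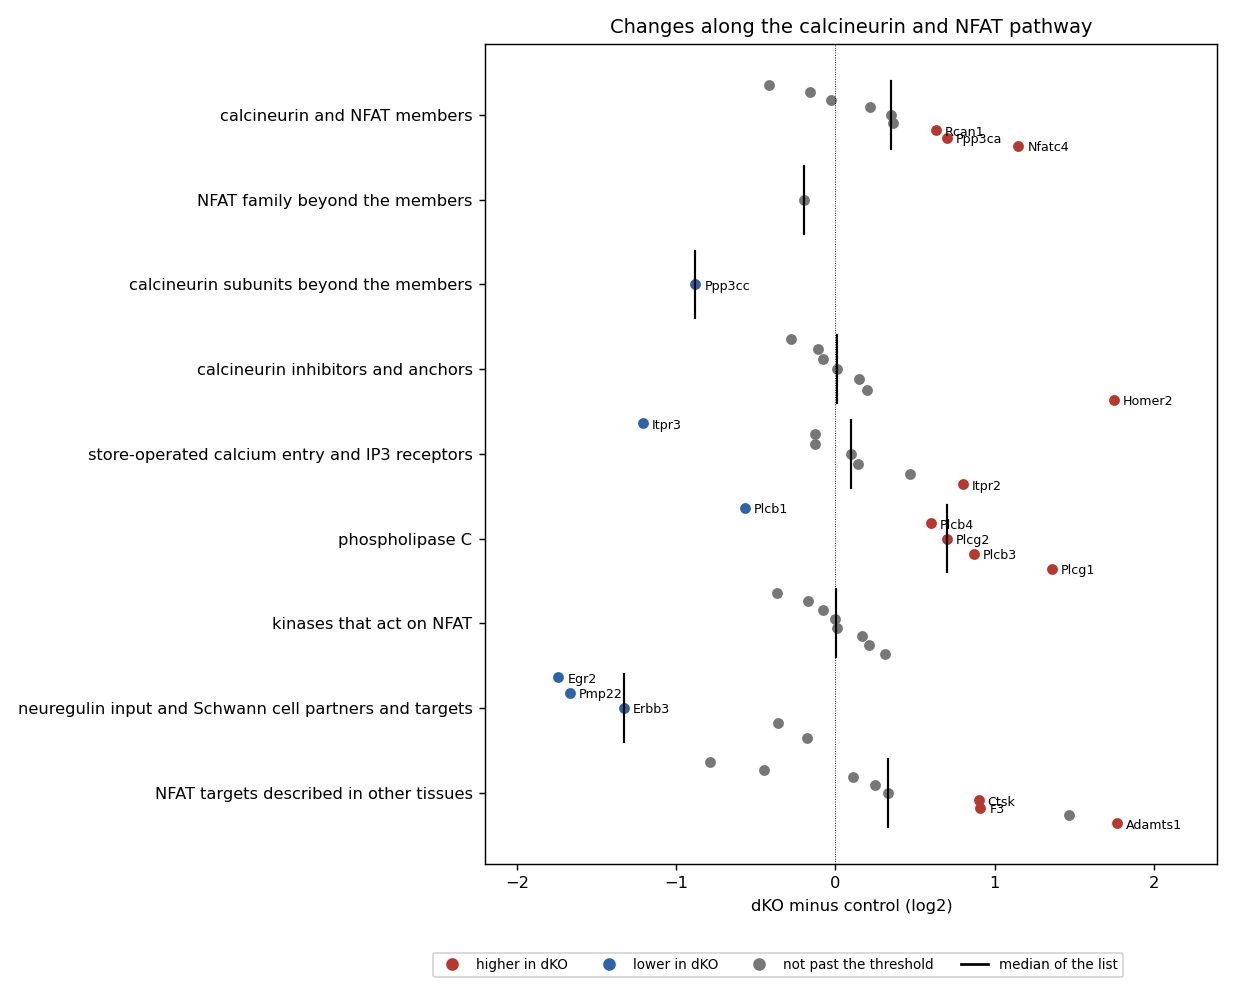
Change (dKO minus control, log2) of each tested gene, with a row for the 9 members and a row for each list of other pathway genes with tested members, red for higher, blue for lower and grey for not past the threshold, and a black line at the median of each list. The 5 listed phospholipase C genes lie mostly to the right, at a median of 0.70, and the Schwann cell list to the left, at -1.33.

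Markers of cell types were counted in the same way, here and in the next paragraph. The shares over all genes tested were again 12.6% called higher and 9.38% called lower, and the counts of some lists were near these shares. Summed levels below are log2 of the summed signal of a list, so the brightest genes of a list weigh most. Of 8 endoneurial fibroblast markers 4 rose (Pdgfra, Dpt, Lum and Dcn), with summed levels of 15.46 to 15.53 in dKO and 15.27 to 15.38 in control. Dpt was under the limit on control arrays 1 and 2. Col1a1, Col1a2, Col3a1 and Osr2 did not pass (changes 0.12, -0.03, 0.11 and 0.53). Of 8 macrophage markers 3 rose (Aif1, Tyrobp and C1qa), with summed levels of 11.91 to 13.03 in dKO and 11.15 to 11.55 in control. Of 8 pericyte and smooth muscle markers 2 rose, with 11.71 to 12.11 in dKO and 11.41 to 11.53 in control. Of 8 endothelial markers 0 passed in limma, with 10.56 to 11.07 in dKO and 10.17 to 10.50 in control. At an unadjusted p under 0.05, 3 of them were higher, but the share of all genes under that cut was not counted. Of 8 neuronal markers 2 rose (Snap25 and Uchl1), with 11.15 to 11.48 in dKO and 10.57 to 11.03 in control. Perineurial markers had 1 higher and 1 lower of 5 tested, with 11.09 to 11.43 in dKO and 10.64 to 10.68 in control.

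Of T cell and mast cell markers 0 of 5 tested passed in limma. At an unadjusted p under 0.05, 1 was lower, and the share of all genes under that cut was not counted. Summed levels were 7.11 to 7.34 in dKO and 7.19 to 7.45 in control, and Cd3e was under the limit on all 6 arrays. Of 7 tested skeletal muscle markers 1 rose, with 7.94 to 8.21 in dKO and 7.70 to 8.11 in control, and Myog was under the limit throughout. Of 3 tested adipocyte markers 1 rose, Fabp4, while Cidec and Pparg did not pass (changes -0.28 and 0.06). Summed levels were 12.18 to 12.88 in dKO and 9.41 to 10.93 in control. Fabp4 alone was at 12.16 to 12.87 in dKO and 9.22 to 10.88 in control. Adipoq and Lep were under the limit throughout. Of 8 Schwann cell lineage markers 2 rose (Ngfr and Fabp7) and 2 fell (Erbb3 and S100b), with 12.56 to 12.83 in dKO and 13.02 to 13.33 in control. All 7 tested markers of myelinating Schwann cells fell, with 13.17 to 14.33 in dKO and 15.52 to 15.64 in control.

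For each member that rose, the 3 genes closest in profile were found as those with the smallest root mean square difference in log2 value over the 6 arrays, after each gene was centred on its own mean. Nearest to Nfatc4 were the adaptor gene Shc2 (difference 0.068), the growth hormone receptor gene Ghr (0.081) and Galm, an enzyme gene of galactose metabolism (0.087), whose changes were 1.06, 1.12 and 1.25. Nearest to Ppp3ca were the complement gene Cfb (0.044), the RNA helicase gene Dhx33 (0.052) and Ttc30a1 (0.054), whose changes were 0.73, 0.75 and 0.79. Nearest to Rcan1 were Pcdhb12 (0.044), Cacng4 (0.052) and the phosphoglucomutase gene Pgm1 (0.054), whose changes were 0.68, 0.55 and 0.62. Cacng4 did not pass the test (adjusted p = 0.0540), although it did without dKO 3 (change 0.66, adjusted p = 0.0382) and with probe sets averaged (change 0.93, adjusted p = 0.00469), and Pcdhb12 was under the limit on control arrays 1 and 2. With probe sets averaged, the change of Galm was 0.82, and the calls of Shc2 (change 0.25) and Pgm1 (change 0.45) were lost.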

How the data were processed

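Per the labels, RNA from each of 6 sciatic nerve samples went onto its own array. The deposited log2 values, 1 per probe set, were made by the authors with GCOS 1.2 and GCRMA per the submitters' processing notes; further settings and scan dates are not given in the sources used here. That they are log2 was judged from their range (1.66 to 14.94). Sorted, the 6 arrays match within 0.01, so a shift common to all genes would not be seen. Of 45101 probe sets, 34958 had 1 gene symbol, 932 several and 9211 none here, with symbols brought up to date by Entrez ID from RefSeq (GRCm38.p6). The fit used limma 3.58.1 (lmFit, eBayes) in R 4.3.3, without covariates, two-sided, with Benjamini-Hochberg adjustment. Results on single probe sets come from a second fit, adjusted over the 33975 that reached the limit. The number of arrays limits the precision (median SE of a change 0.17). Alternatives were other low-value limits, probe sets averaged, array centring, an intensity trend, a replicate block and each array left out.

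Named were all members, Hdac1, Hdac2, Sox10, Egr2, up to 4 called genes of each pathway list (2 where 0 passed), every gene of lists of at most 3, and 3 like genes per called member. Plcg2, Egr3 and the marker genes were named outside this rule, after their values were seen. Egr3 and the markers were not recomputed under the alternatives. Members and lists were chosen with earlier results of these data known. Some listed genes are not reported here.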

Additional observations from a re-analysis of the deposited data

How the results depend on the processing

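Over the 9 member genes, 100 of 116 recomputed values kept direction and side of the threshold, over the 28 member probe sets 187 of 224, and over 30 other named genes 342 of 386. Of the 31 that changed sign, 0 were past the threshold. With all probe sets averaged, 1 member was called higher and the changes were 0.22 for Nfatc4, 0.38 for Rcan1 and 0.01 for Ppp3cb. With only the probe sets above the limit averaged, 1 was called higher and the changes were 0.24, 0.38 and 0.00. With arrays centred, Rcan1 changed by 0.56. With the replicate number as a block, the Rcan1 change of 0.63 had an adjusted p of 0.0674, and 3 member probe sets were called, against 5. Same-numbered arrays did not deviate together (correlations 0.04, -0.12 and -0.23), and not every array correlated best with its own number. The highest correlations were 0.22 for dKO 2 with control 3 and 0.21 for dKO 3 with control 2. With 3 arrays per group and deviations taken from each group's own mean, this cannot tell whether arrays shared a litter or a day. With 1 array left out at a time, the genes called numbered 891 to 1331 lower and 1246 to 1585 higher, against 1365 and 1833 with all arrays, and the probe sets 1406 to 2171 lower and 1565 to 2316 higher, against 2514 and 2861, and the member probe sets 2 to 5. In the same way the change was -0.28 to 0.16 for Nfatc2, -0.33 to 0.08 for Ppp3cb, 0.50 to 0.73 for Rcan1 and -0.37 to 0.14 for Nfat5. For probe sets whose sign turned it was -0.13 to 0.20 for 1417621_at (Nfatc1), -0.07 to 0.43 for 1447085_s_at (Nfatc1), -0.04 to 0.26 for 1447084_at (Nfatc1), -0.28 to 0.16 for 1439205_at (Nfatc2), -0.04 to 0.11 for 1426031_a_at (Nfatc2), -0.05 to 0.22 for 1425901_at (Nfatc2), -0.17 to 0.07 for 1440426_at (Nfatc2), -0.26 to 0.01 for 1454369_a_at (Nfatc4), -0.33 to 0.08 for 1427468_at (Ppp3cb), -0.12 to 0.12 for 1433835_at (Ppp3cb), -0.32 to 0.21 for 1428474_at (Ppp3cb) and -0.01 to 0.38 for 1416601_a_at (Rcan1). The causes were not tested. A gene tested at a limit of 6 had to be that bright on 3 arrays, so Rcan2 has no value there.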
